A study of Mus musculus with 41 samples.

Results

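The genes described here are 10 of the 13 protein-coding genes of the mouse mitochondrial genome, chosen by name: mt-Nd1, mt-Nd2, mt-Nd4, mt-Nd5, mt-Nd6, mt-Cytb, mt-Co1, mt-Co2, mt-Co3 and mt-Atp6. They are 10 of the 22438 genes with footprint counts and of the 55385 genes with RNA counts, and all 10 passed the filter on low counts in every comparison. The series asked how translation changes when the mRNA surveillance factors Hbs1l, Pelo or Upf2 are removed, by ribosome profiling (sequencing of the mRNA fragments that ribosomes protect, 30 libraries) and RNA sequencing (11 libraries). Footprints came from whole embryos at embryonic day 8.5, with Hbs1l -/- embryos and Wildtype embryos of C57BL/6NJ background and pooled embryos in each replicate. They also came from single cerebella of C57BL/6J mice at postnatal day 14, Atoh-Cre;Hbs1l cKO against Atoh-Cre;Hbs1l +/+, where Cre acts in the granule cell lineage. Per the study's methods this cKO carries a floxed and a null allele of Hbs1l, so that the other cells of the cerebellum keep the floxed copy. Primary mouse embryonic fibroblasts (MEFs) of C57BL/6 background carried CAG-Cre ER, a Cre active in all cells after tamoxifen, with Hbs1l cKO, Pelo cKO or Upf2 cKO alleles or with none (control), and every MEF culture, controls included, was treated with 4-hydroxytamoxifen. Per the study's methods, Hbs1l cKO MEFs carried a floxed and a null allele, and Pelo cKO and Upf2 cKO MEFs only floxed alleles. All MEFs and the cerebellar cKO were homozygous for the C57BL/6J variant of the tRNA gene n-Tr20. Each group had 3 libraries except the RNA of Pelo cKO MEFs, which had 2, and each MEF library came from the cells of a single embryo.

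Mitochondria keep a small circular genome whose mRNAs are translated inside the organelle by a separate kind of ribosome, and all of its protein-coding genes encode subunits of the oxidative phosphorylation complexes. Both strands are transcribed as long precursors that are cut into single mRNAs, so that these mRNAs share promoters, and most subunits of the same complexes are encoded in the nucleus and translated in the cytosol. Hbs1l and Pelo bind each other and release ribosomes that stall on cytosolic mRNAs, and Upf2 is a factor of nonsense-mediated decay. Stretches of mitochondrial DNA have also been copied into the nuclear genome over evolution, and a short read from such a stretch can be placed at more than 1 locus.

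On the GRCm38 build, with the GENCODE annotation, each gene is a single exon with no annotated untranslated region. Those of complex I, the NADH dehydrogenase at the entry of the respiratory chain, are mt-Nd1 at chrM:2751-3707, mt-Nd2 at chrM:3914-4951, mt-Nd4 at chrM:10167-11544, mt-Nd5 at chrM:11742-13565 and, alone on the minus strand, mt-Nd6 at chrM:13552-14070. The cytochrome b gene of complex III, mt-Cytb, lies at chrM:14145-15288. Complex IV, the cytochrome c oxidase, takes its catalytic core from mt-Co1 at chrM:5328-6872, mt-Co2 at chrM:7013-7696 and mt-Co3 at chrM:8607-9390, and mt-Atp6 at chrM:7927-8607 encodes a membrane subunit of the ATP synthase. The ends of mt-Nd5 and mt-Nd6 overlap on opposite strands, and mt-Atp6 overlaps the end of mt-Atp8. How the counting treated strand, overlaps and reads with several matches is not given in the sources used here.

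The first 30 coding bases of each mRNA, read from the annotated transcripts with the start codon in capitals, show which mRNAs are meant and that mitochondria also start translation at codons other than ATG.
mt-Nd1: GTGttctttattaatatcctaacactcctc
mt-Nd2: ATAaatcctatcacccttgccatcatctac
mt-Nd4: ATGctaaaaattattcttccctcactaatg
mt-Nd5: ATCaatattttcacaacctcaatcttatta
mt-Nd6: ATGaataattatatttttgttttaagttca
mt-Cytb: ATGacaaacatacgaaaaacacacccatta
mt-Co1: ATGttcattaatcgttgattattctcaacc
mt-Co2: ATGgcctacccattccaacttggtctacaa
mt-Co3: ATGacccaccaaactcatgcatatcacata
mt-Atp6: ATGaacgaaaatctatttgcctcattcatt

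The 10 coding sequences differ in how much of them was also found in annotated nuclear transcripts. Each was split into all overlapping windows of 30 bases, about the length of a footprint. Every window was looked up in all annotated transcripts except those of mitochondrial genes. The genome sequence itself was not searched, so copies without annotation are missed and the shares are lower limits. None of the windows of mt-Nd1 was shared, against 7.35% in mt-Cytb, 8.37% in mt-Nd6, 14.1% in mt-Nd2 and 17.5% in mt-Nd5. In mt-Nd4 62.8% and in mt-Co1 64.8% of windows were shared. In mt-Atp6 the share was 99.5%, in mt-Co3 99.9% and in mt-Co2 every window was shared. Several of these copies are unprocessed pseudogenes that stand side by side on the minus strand of chromosome 1. They are Gm28439 (mt-Nd4) at chr1:24611535-24612410, Gm28437 (mt-Co3) at chr1:24613189-24613971, Gm10925 (mt-Atp6) at chr1:24613974-24614651, Gm28661 (mt-Co2) at chr1:24614885-24615565 and Gm29216 (mt-Co1) at chr1:24615706-24616197. The footprint tables have no entry for any of these copies, while the RNA tables list each of them.

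A copy can be identical to its mitochondrial gene or can have drifted from it, and 2 pairs of 60-base stretches show both cases, with differing bases in capitals. Gm28661 matched mt-Co2 at all 681 aligned bases, so that bases 311 to 370 of the coding sequence read the same in both. Gm11410, a copy on chromosome 4, matched mt-Cytb at 92.8% of 1143 aligned bases, with 82 mismatches in all and 4 in bases 542 to 601.
mt-Co2: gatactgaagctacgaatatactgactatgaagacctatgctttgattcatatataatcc
Gm28661: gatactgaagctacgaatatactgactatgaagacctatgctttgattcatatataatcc
mt-Cytb: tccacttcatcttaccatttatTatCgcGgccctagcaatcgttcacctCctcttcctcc
Gm11410: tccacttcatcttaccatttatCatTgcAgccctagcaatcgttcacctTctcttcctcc

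Footprint libraries held 2634480 to 25607974 counts, fewest in the embryo (2634480 to 7298812), and RNA libraries held 22713643 to 86425762 estimated counts. Footprint counts of Hbs1l were lower in each Hbs1l mutant group than in its controls (in MEFs 1.51 to 2.58 CPM (counts-per-million) against 32.5 to 38.0) and those of Pelo in Pelo cKO MEFs (2.03 to 2.93 CPM against 31.7 to 37.1). Upf2 counts were higher, not lower, in the MEFs labelled Upf2 cKO (114 to 118 footprint CPM against 46.9 to 57.8 in controls); counts over the whole gene include exons outside the deleted part and so do not check the label. The control MEFs were sequenced in 3 pools, each beside a different mutant. Between pools, same-numbered controls had a chi-square of 1.11 to 1.19 per gene and controls of different number one of 4.04 to 11.6, so the 9 control libraries are treated as 3 samples sequenced in 3 pools. The 3 footprint comparisons in MEFs therefore share their control cultures. All 6 fibroblast markers were above 1 CPM in every MEF library, all 5 granule cell markers in every cerebellum library and all 8 cardiomyocyte markers in every embryo library.

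The 10 genes together took 0.466% to 1.18% of footprint counts in the embryo, 0.919% to 2.33% in the cerebellum and 0.297% to 0.985% in MEFs, and 0.527% to 1.17% of RNA counts in MEFs. Per kilobase of coding sequence, mt-Cytb stood first in control embryos at 1218 ± 136 CPM per kb (SD, n = 3), above mt-Co1 at 875 ± 79.5. Then came mt-Nd6 at 743, mt-Nd1 at 737, mt-Nd2 at 586, mt-Nd5 at 484 and mt-Nd4 at 240 CPM per kb. The last 3 were mt-Co2 at 101 ± 22.1, mt-Co3 at 46.4 ± 12.8 and mt-Atp6 at 42.4 ± 8.52 CPM per kb. Neighbours in this order overlapped for mt-Co1 with mt-Nd6, mt-Nd6 with mt-Nd1 and mt-Co3 with mt-Atp6, and the other neighbours did not overlap.

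The same 3 genes came last in the other 2 control groups. In control cerebella mt-Cytb was at 3051 ± 1609 and mt-Co1 at 2797 ± 1148 CPM per kb, against 210.1 ± 101.8 for mt-Co2, 162 ± 69.0 for mt-Co3 and 96.1 ± 32.1 for mt-Atp6, and all neighbours in the order overlapped except mt-Nd6 with mt-Nd4. In control MEFs of the Hbs1l pool mt-Cytb was at 1564 ± 280.2 and mt-Co1 at 1065 ± 219 CPM per kb. There mt-Nd4 was at 216 ± 46.0, and the last 3 followed without overlap with it at 13.98 ± 3.22 for mt-Co2, 12.5 ± 4.20 for mt-Co3 and 11.3 ± 3.55 for mt-Atp6, which overlapped each other. They are also the 3 genes with nearly all windows shared, and the part of read placement in their low footprint level was not tested. Divided by the length of their unshared windows alone, the counts of the whole coding sequence would come to 2531, 8091 and 3080 CPM per kb for mt-Co1 in embryo, cerebellum and MEF controls and to 658, 1103 and 593 for mt-Nd4. These are upper limits for windows not found in other annotated transcripts, since reads of shared windows may be among the counts. Copies without annotation were not searched, so the length free of any copy may be shorter.

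**Figure D1:**
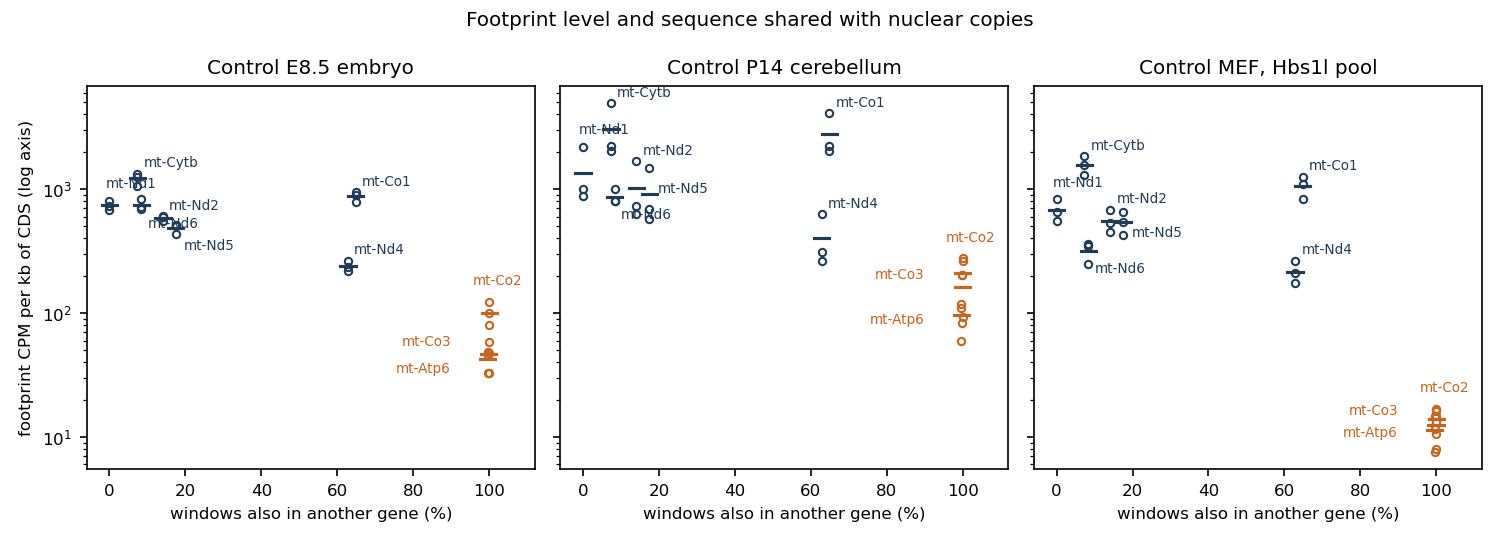
Footprint level of the 10 genes in CPM per kilobase of coding sequence (log axis) against the percent of 30-base windows also found in another gene, in control embryos, cerebella and MEFs of the Hbs1l pool; points are libraries, bars are means. The means of the 3 genes at 99.5% or more, in orange, lie below those of the other 7 in each tissue, and in the cerebella the libraries of mt-Co2 and mt-Nd4 overlap.

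In RNA the same 3 genes came first instead of last. In control MEFs mt-Atp6 was first at 4811 ± 1056 transcripts-per-million (TPM, SD, n = 3), followed by mt-Co3 at 4358 ± 814 and mt-Co2 at 2915 ± 785. Next were mt-Co1 at 1698 and mt-Nd1 at 1689 TPM, and mt-Nd5 was last at 462 ± 146. Every pair of neighbours overlapped. The 3 genes with nearly all windows shared held 42.6% to 48.2% of the counts of all 10 in control RNA and 0.248% to 4.46% of them across all footprint libraries.

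In Hbs1l -/- embryos the footprints of mt-Co2, mt-Co3 and mt-Atp6 fell to 0.183 to 0.262 of the control level, while the other 7 genes did not pass the test. Catalytic subunit mt-Co2 was at 84.3, 67.6 and 54.2 CPM in the control embryos and at 20.3, 6.20 and 8.84 CPM in the Hbs1l -/- embryos. For mt-Co3, the controls were at 45.9, 37.4 and 25.9 CPM and the mutants at 10.7, 5.28 and 10.6. The ATP synthase subunit mt-Atp6 was at 33.0, 31.0 and 22.2 CPM in controls and at 8.91, 3.68 and 9.90 in mutants. For these 3 genes every mutant library lay below every control library, on 16 to 148 counts per mutant library. With mt-Nd6, described below, 4 of the 10 lay wholly lower in mutants, where 12.6% of all genes did. The log2 fold changes were -2.45 ± 0.33 for mt-Co2, -2.02 ± 0.29 for mt-Co3 and -1.93 ± 0.32 for mt-Atp6 (± SE here and below; adjusted p = 0.00213, 0.00341 and 0.00831, edgeR quasi-likelihood test with Benjamini-Hochberg adjustment over all genes). Thus 3 of 10 genes fell and none rose, where 0.955% of all 11416 genes tested fell and 0.920% rose. The mt-Atp6 call was lost without control replicate 1 (-1.82, adjusted p = 0.0671) or control replicate 2 (-1.88, adjusted p = 0.0902). Footprints of mt-Nd3, a complex I subunit that is not among the 10 and has 98.1% of windows shared, changed by -1.78 (adjusted p = 0.0199). Those of mt-Atp8 changed by -1.66 without passing (adjusted p = 0.0851, edgeR), with a mean of 1.77 CPM in mutants and 5.83 in controls. Of its windows 8.0% were found in annotated transcripts of other genes. It starts between mt-Co2 and mt-Atp6, whose annotated copies are neighbours on chromosome 1, and sequence without annotation was not searched.

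The other 7 genes were not called, and in all of them but mt-Nd6 the groups overlapped. Cytochrome b (mt-Cytb) was at 1221, 1437 and 1523 CPM in controls and at 1164, 1241 and 3212 CPM in mutants. Complex I subunit mt-Nd5 was at 791, 938 and 912 CPM in controls and at 808, 1081 and 2283 in mutants. The third Hbs1l -/- library was above every control for mt-Nd1, mt-Nd2, mt-Nd4, mt-Nd5, mt-Cytb and mt-Co1, while Hbs1l -/- replicate 1 was below the highest control for each of them. The minus-strand gene mt-Nd6 was lower in every mutant library than in any control, with 257, 151 and 336 CPM in mutants against 354, 370 and 427 in controls. Log2 fold changes ran from 0.12 for mt-Co1 to 0.67 for mt-Nd5 and -0.62 ± 0.21 for mt-Nd6 (adjusted p = 0.784, 0.212 and 0.139), and the median over the 10 was 0.27 beside 0.0083 over all genes. Without Hbs1l -/- replicate 1, mt-Nd1 (0.88, adjusted p = 0.00800), mt-Nd2 (0.73, 0.0407), mt-Nd4 (0.70, 0.0413) and mt-Nd5 (0.95, 0.00646) passed as higher, so that 7 of the 10 were called among 2309 genes. Without Hbs1l -/- replicate 3, mt-Nd6 passed as lower (-0.88, adjusted p = 0.0483) and mt-Nd2, mt-Nd4, mt-Cytb and mt-Co1 turned to between -0.21 and -0.17. With no filter on low counts, mt-Nd5 passed as higher (0.66, adjusted p = 0.0365) and mt-Nd6 as lower (-0.63, 0.0245, edgeR). mt-Nd6 also passed with the replicate number as a block (-0.67, adjusted p = 0.0271, edgeR).

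Other measures moved with genotype in the same embryos. Summed cardiomyocyte markers (8 of 8 listed) were at 759.7 to 1221 CPM in Hbs1l -/- and at 1971 to 2412 in control embryos. Erythroid markers (5 of 5) were at 3096 to 7921 against 12527 to 16389 CPM, and of 6 trophoblast markers 4 to 5 were above 1 CPM in mutants and 2 to 3 in controls, with sums of 159.7 to 453 against 102 to 126 CPM. Epithelium markers were at 1474 to 1679 against 1109 to 1205 CPM and endothelium markers at 472 to 667 against 406 to 434. Lower in mutants were neural tube (65.8 to 131 against 141 to 147 CPM) and skeletal muscle markers (15.4 to 26.4 against 38.0 to 50.5). The same held for fibroblast (509 to 664 against 715 to 822) and oligodendrocyte and astrocyte markers (9.55 to 13.4 against 17.8 to 21.1). In bulk samples, fewer cells of a type and less RNA per cell cannot be told apart. Nuclear genes with 95% or more of their coding windows shared with another locus also moved: 14 of 64 fell and none rose, 21.9%, with a median log2 fold change of -0.70, against 0.572% of 9784 nuclear genes with under 5% shared. The part of cell makeup or of read placement in the fall of the 3 genes was not tested.

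**Figure D2:**
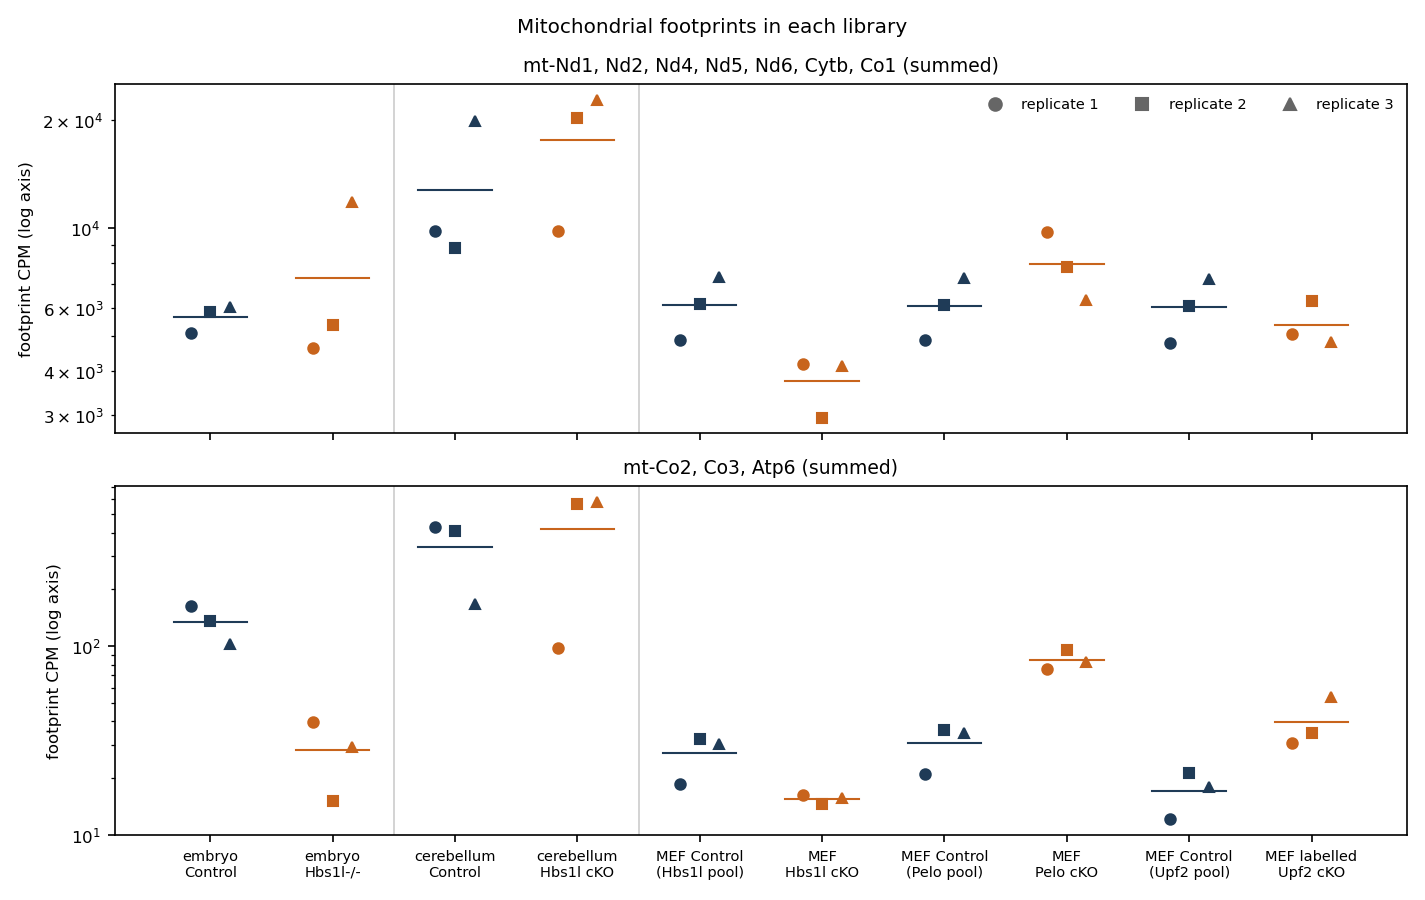
Summed footprint CPM (log axis) of mt-Nd1, mt-Nd2, mt-Nd4, mt-Nd5, mt-Nd6, mt-Cytb and mt-Co1 (top) and of mt-Co2, mt-Co3 and mt-Atp6 (bottom) in each library, with symbols for replicates and lines for means. In the embryo the bottom sum was 15.2 to 39.9 CPM in Hbs1l -/- and 102 to 163 in controls, and in the cerebellum both sums split the libraries of each genotype.

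In the cerebellum no mitochondrial gene passed the test between Atoh-Cre;Hbs1l cKO and control mice, and the libraries fell apart within each genotype. For mt-Co1 the controls were at 3435, 3152 and 6351 CPM and the cKO at 3079, 6621 and 7219. The mt-Cytb footprints ran in parallel, at 2544, 2314 and 5612 CPM in controls and 2715, 5552 and 5982 in the cKO. The 7 genes summed to 8780 to 9798 CPM in control replicates 1 and 2 and cKO replicate 1, and to 19867 to 22746 CPM in the other 3 libraries. Their 3 partners with shared windows split otherwise: mt-Co2 was at 187 and 179 CPM in control replicates 1 and 2, at 63.3 in control replicate 3, at 40.3 in cKO replicate 1 and at 253 and 250 in cKO replicates 2 and 3. Log2 fold changes ran from -0.29 ± 0.30 for mt-Nd6 to 0.54 ± 0.42 for mt-Nd2, and no adjusted p was below 0.622 (edgeR). Across all 14430 genes tested 0.0624% were called, 9 genes, with 1936 at an unadjusted p under 0.05, and DESeq2 called 484 genes and none of the 10. Purkinje cell markers (4 of 4) summed to 4402 to 5227 CPM in the cKO and 6257 to 8425 in controls, and granule cell progenitor markers (4 of 4) to 86.5 to 153 against 47.0 to 56.7, while granule cell markers overlapped (3007 to 3647 against 2987 to 4662). Neural tube markers (4 of 4) summed to 206 to 225 CPM against 142 to 180 in controls and macrophage markers (5 of 5) to 132 to 144 against 102 to 120. Skeletal muscle markers (2 of 4 above 1 CPM) summed to 8.52 to 13.9 CPM against 4.31 to 7.36. The part of these markers in the mitochondrial values was not tested.

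In Hbs1l cKO MEFs 9 of the 10 genes fell, to between 0.498 and 0.648 of the control level. The largest complex I change was that of mt-Nd4, at 239, 290 and 365 CPM in controls and at 179, 128 and 169 in the cKO. Membrane subunit mt-Nd1 was at 527, 627 and 789 CPM in controls against 409, 293 and 421. For mt-Cytb the values were 1475, 1775 and 2116 against 1261, 863 and 1289 CPM. All cKO libraries lay below all control libraries in these 3 genes and in 9 of the 10, where 21.0% of all genes lay wholly lower. The log2 fold changes were -0.92 ± 0.14 for mt-Nd4, -0.91 ± 0.16 for mt-Nd5, -0.81 ± 0.14 for mt-Nd1, -0.77 ± 0.16 for mt-Nd2 and -0.68 ± 0.14 for mt-Cytb (adjusted p = 0.000186, 0.000612, 0.000542, 0.00204 and 0.00206, edgeR). Of complex IV, mt-Co1 changed by -0.64 ± 0.13 (adjusted p = 0.00185), from 1279, 1700 and 1946 CPM in controls to 1213, 909 and 1103 CPM.

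The 3 genes with nearly all windows shared fell by like amounts in these MEFs but on 21 to 174 counts per library. Controls were at 6.28, 12.8 and 10.4 CPM for mt-Co3 and the cKO at 5.37, 5.23 and 4.44, a log2 fold change of -1.01 ± 0.24 (adjusted p = 0.00560, edgeR). For mt-Atp6 the change was -0.86 ± 0.24 (adjusted p = 0.0134) and for mt-Co2 -0.63 ± 0.19 (adjusted p = 0.0226). Only mt-Nd6 did not pass, at 128, 185 and 178 CPM in controls and 162, 132 and 113 in the cKO (-0.29 ± 0.14, adjusted p = 0.122), and here the groups overlapped. Of all 11984 genes tested 16.7% fell and 17.4% rose, and the median was -0.79 over the 10 genes and -0.0069 over all. The mt-Co2 call was lost without control replicate 2 (-0.45, adjusted p = 0.118), cKO replicate 1 (-0.65, 0.0657) or cKO replicate 2 (-0.58, 0.0591), and that of mt-Atp6 without control replicate 3 (-0.64, 0.0562). mt-Nd6 passed without control replicate 1 (-0.45, adjusted p = 0.0190) or cKO replicate 1 (-0.45, 0.0364), and with no filter on low counts (-0.29, 0.0264). In the same libraries fibroblast markers summed to 20647 to 24874 CPM against 17589 to 17782 in controls, macrophage markers (5 of 5) to 162 to 219 against 91.5 to 123 and endothelium markers (3 to 4 of 5 above 1 CPM, 3 of 5 in controls) to 38.8 to 43.4 against 69.2 to 82.7. Epithelium markers were at 15.2 to 28.2 CPM against 36.3 to 50.9 and granule cell progenitor markers at 334 to 389 against 147 to 201. Skeletal muscle markers (1 of 4 above 1 CPM, 2 to 3 of 4 in controls) summed to 70.4 to 117 CPM against 149.6 to 204. Of 63 nuclear genes with 95% or more of windows shared, 5 fell and 2 rose (7.94% and 3.17%, median 0.01), against 17.2% and 17.6% of 10237 with under 5% shared. The part of these in the mitochondrial fall was not tested.

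The RNA of Hbs1l cKO MEFs moved the same way. For mt-Nd4 the controls were at 421, 761 and 548 CPM of estimated counts and the cKO at 315, 368 and 309 CPM (log2 fold change -0.81 ± 0.17, adjusted p = 0.0108, edgeR). The values of mt-Cytb were 618, 991 and 837 CPM in controls and 441, 601 and 537 in the cKO (-0.64 ± 0.15, adjusted p = 0.0187). In both, and in 7 of the 10 genes, all cKO libraries lay below all controls, where 19.6% of all genes did. mt-Nd1 (-0.64, adjusted p = 0.0198), mt-Co2 (-0.60, 0.0192), mt-Nd2 (-0.57, 0.0219) and mt-Atp6 also fell, 6 of 10 genes in all where 10.4% of the 15318 genes tested fell and 12.7% rose. The values of mt-Co3 (-0.63 ± 0.20, adjusted p = 0.0502), mt-Nd5 (-0.49, 0.0533), mt-Co1 (-0.43, 0.0632) and mt-Nd6 (-0.27, 0.280) did not pass. Several of these calls were lost with 1 library left out. The log2 fold changes then were -0.60 to -0.44, beside -0.64 to -0.57 with all libraries. Without control replicate 2, mt-Nd1 (adjusted p = 0.0787), mt-Nd2 (0.0794), mt-Cytb (0.0706) and mt-Co2 (0.0714) were lost. Without cKO replicate 1 the same 4 genes were lost (0.0605, 0.0770, 0.0648 and 0.0690). Without control replicate 3, mt-Nd1 (0.0521) and mt-Nd2 (0.0527) were lost, and without cKO replicate 2 mt-Nd2 (0.0681), while mt-Co3 passed (0.0461). Without control replicate 1, mt-Nd5 (-0.65, adjusted p = 0.0124) and mt-Co1 (-0.56, 0.0259) passed. DESeq2 also called mt-Nd5 (0.0106), mt-Co1 (0.0166) and mt-Co3 (0.00489), and mt-Co3 passed with RLE factors (0.0490) and with no filter on low counts (0.00219), as did mt-Nd5 with no filter (0.0138). Outside the 10, the complex I subunits mt-Nd4l and mt-Nd3 changed by -0.82 and -0.73 (adjusted p = 0.0228 and 0.0422, edgeR). In the same RNA libraries macrophage markers (4 to 5 of 5 above 1 CPM) summed to 123 to 169 CPM against 65.9 to 96.6 in controls. Endothelium markers (3 of 5) summed to 16.1 to 18.2 against 28.8 to 37.3 and epithelium markers (2 of 4) to 17.0 to 30.3 against 38.2 to 48.2. Skeletal muscle markers (1 to 2 of 4, 2 to 3 of 4 in controls) summed to 110.8 to 192 CPM against 234.9 to 266. The part of these markers in the RNA change was not tested.

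The size of the mt-Atp6 change depended on how reads were divided between the gene and its nuclear copy. mt-Atp6 alone was at 1391, 1599 and 1962 CPM in control RNA and at 291, 647.5 and 457.5 in the Hbs1l cKO, a log2 fold change of -1.85 ± 0.24 (adjusted p = 0.00183, edgeR). The copy Gm10925 held 2.60%, 27.9% and 1.13% of the reads assigned to gene and copy in controls and 54.9%, 49.5% and 66.6% in the cKO. With copies added, the controls were at 1428, 2220 and 1985 CPM, the cKO at 645, 1283 and 1369, and the change was -0.78 (adjusted p = 0.0495). For mt-Co2, copies held 3.14% to 17.3% in controls and 11.9% to 15.3% in the cKO, and the change with copies was -0.53 (adjusted p = 0.0185). For mt-Co3 the copies held at most 0.730%, and with them added the change of -0.63 passed (adjusted p = 0.0485).

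**Figure D3:**
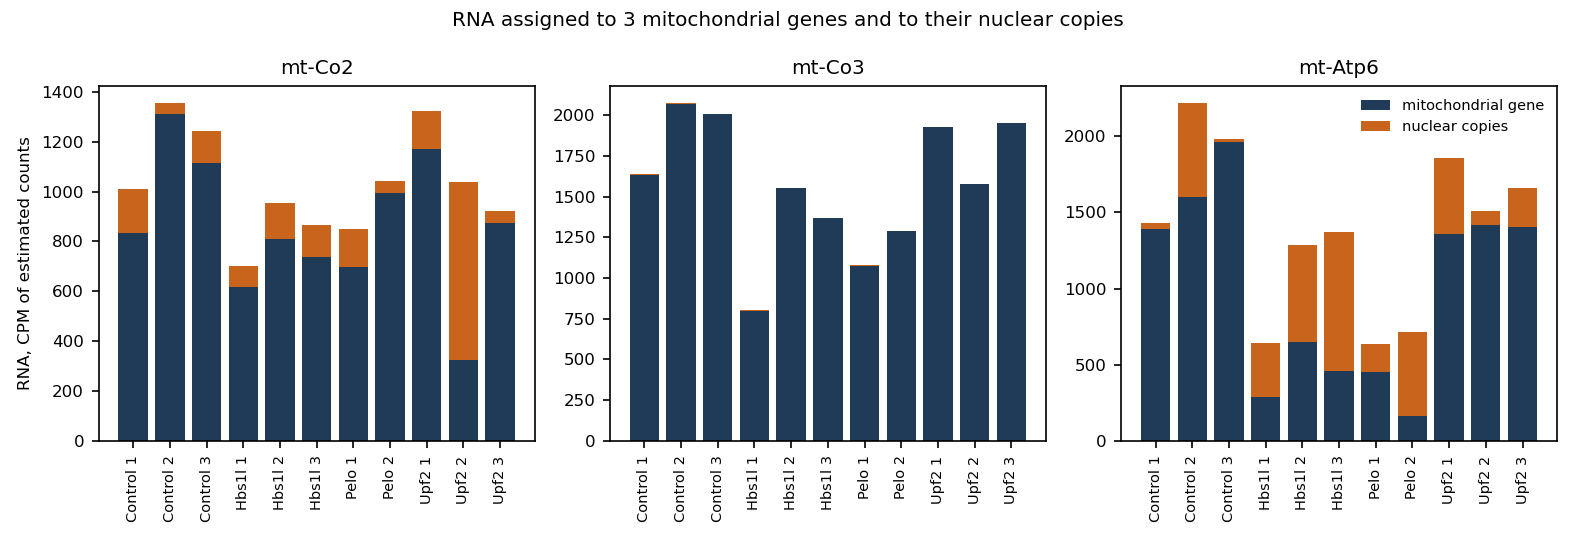
RNA of mt-Co2, mt-Co3 and mt-Atp6 in the 11 MEF RNA libraries, in CPM of estimated counts, with the part assigned to the gene (dark) and to its nuclear copies (orange) stacked. The copies took 49.5% to 66.6% of mt-Atp6 in Hbs1l cKO, 77.5% in Pelo cKO replicate 2 and 68.8% of mt-Co2 in replicate 2 of the MEFs labelled Upf2 cKO.

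Translational efficiency, the change in footprints beyond the change in RNA, did not pass the test for any of the 10 genes in Hbs1l cKO MEFs. The values ran from -0.41 ± 0.26 for mt-Nd5 to 1.01 ± 0.40 for mt-Atp6 (adjusted p = 0.426 and 0.217, edgeR), and with copies added mt-Atp6 was at -0.05. Of all 11907 genes tested 0.0336% passed in either direction, 4 genes, with 2063 at an unadjusted p under 0.05. DESeq2 called 334 genes and none of the 10.

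In Pelo cKO MEFs the 3 genes with shared windows rose most. mt-Co2 was at 7.78, 14.1 and 10.8 CPM in the controls of the Pelo pool and at 28.3, 38.9 and 33.1 CPM in the cKO. Control values of mt-Co3 were 6.38, 12.2 and 11.5 CPM, against 24.8, 30.9 and 27.0. For mt-Atp6 they were 6.99, 9.75 and 12.4 CPM, against 22.5, 25.4 and 21.95. Every cKO library was above every control library for the 3 genes and for 5 of the 10, where 29.3% of all genes lay wholly higher. The log2 fold changes were 1.59 ± 0.20, 1.44 ± 0.20 and 1.24 ± 0.17 (adjusted p = 0.000137, 0.000302 and 0.000291, edgeR). mt-Co1 rose by 0.59 ± 0.17 (adjusted p = 0.0191), from 1288, 1677 and 1940 CPM to 3102, 2391 and 1993, and mt-Nd6 by 0.54 ± 0.15 (adjusted p = 0.0150), from 128, 176 and 175 CPM to 287, 211 and 207.

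The remaining 5 genes were between 0.14 ± 0.19 for mt-Nd5 and 0.36 ± 0.16 for mt-Cytb in Pelo cKO footprints (adjusted p = 0.585 and 0.0888, edgeR), and their groups overlapped. In all 5 of 10 genes rose and none fell, where 22.9% of the 12486 genes tested rose and 21.2% fell, with a median of 0.45 over the 10 and 0.0037 over all. The mt-Co1 call was lost without control replicate 1 (0.44, adjusted p = 0.0801) or cKO replicate 1 (0.41, 0.0826) and in DESeq2 (0.0549). That of mt-Nd6 was lost without control replicate 1 (0.40, 0.0630) or cKO replicate 1 (0.37, 0.0593). mt-Cytb passed without control replicate 3 (0.50, adjusted p = 0.0456) or cKO replicate 3 (0.51, 0.0110), and without the latter also mt-Nd1 (0.47, 0.0304) and mt-Nd4 (0.44, 0.0307). Outside the 10, mt-Nd3 rose by 2.37 and mt-Nd4l, another complex I subunit with 98.9% of windows shared, by 1.22 (adjusted p = 0.000101 and 0.00191).

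Among nuclear genes with 95% or more of their windows shared, 31 of 76 rose in Pelo cKO footprints, 40.8%, and 3 fell, with a median of 0.44, beside 22.0% higher of 10645 nuclear genes with under 5% shared, a difference that was not tested. Fibroblast markers summed to 22542 to 28759 CPM in the cKO and 17601 to 17741 in controls, macrophage markers to 345 to 501 CPM in the cKO and 91.3 to 126 in controls, and endothelium markers to 25.1 to 31.9 against 73.6 to 81.4. Epithelium markers were at 22.1 to 30.9 CPM in the cKO and 35.9 to 49.8 in controls, and granule cell progenitor markers at 331 to 399 against 148 to 209. The part of these in the rise of the mitochondrial genes was not tested.

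**Figure D4:**
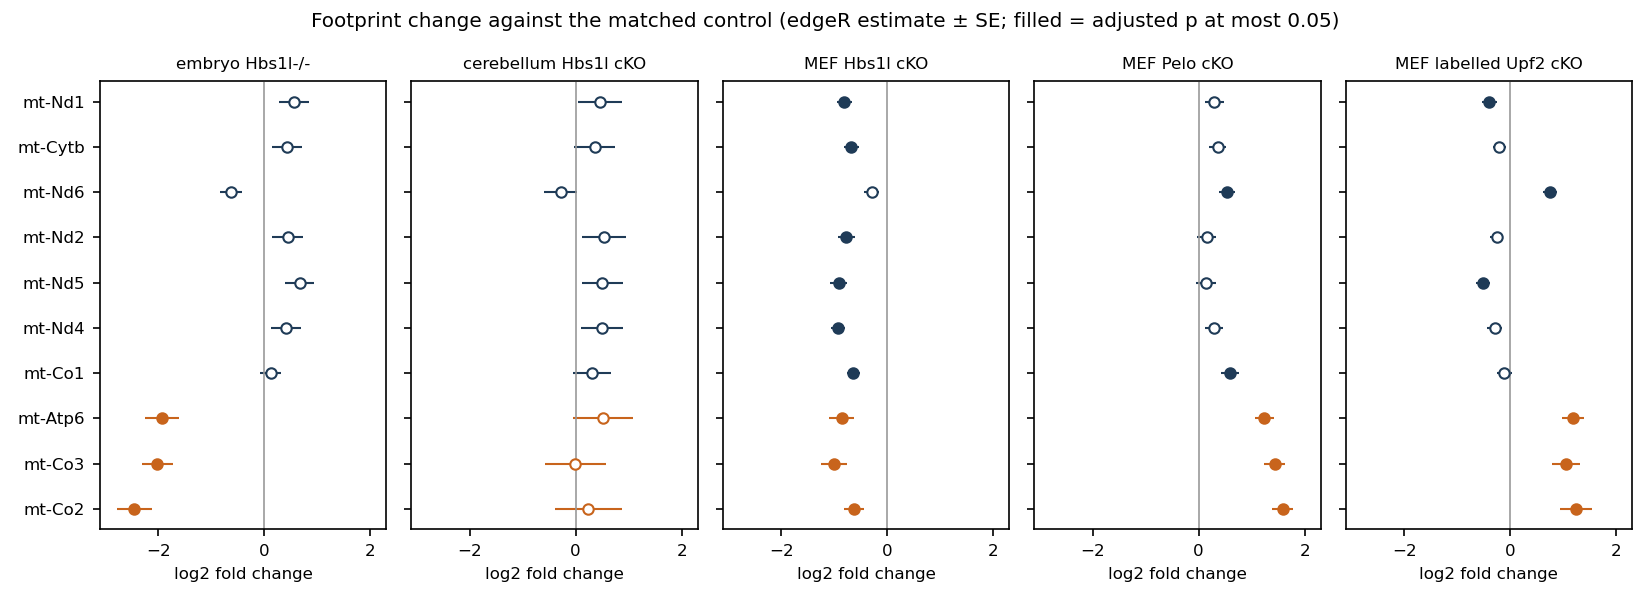
Footprint log2 fold change of the 10 genes against the matched controls in the 5 comparisons, as edgeR estimates ± SE, filled where the adjusted p was at most 0.05 and ordered by the percent of shared windows. The 3 genes with nearly all windows shared, in orange, were lower in Hbs1l -/- embryos and Hbs1l cKO MEFs and higher in Pelo cKO and in the MEFs labelled Upf2 cKO.

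Pelo cKO RNA did not rise for those 3 genes. The RNA of mt-Co3 fell from 1633, 2070 and 2009 CPM in controls to 1076 and 1290 in the cKO (log2 fold change -0.70 ± 0.13, adjusted p = 0.00827, edgeR). mt-Atp6 fell from 1391, 1599 and 1962 CPM to 451 and 160.1 (-2.46 ± 0.41, adjusted p = 0.00540), and by 1.49 on the log2 scale with copies added (adjusted p = 0.00190), the copy holding 29.2% and 77.5% of the reads. mt-Co2 was at 699 and 994 CPM against 834, 1313 and 1113 in controls (-0.37 ± 0.21, adjusted p = 0.211).

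Among the other genes in that RNA, mt-Co1 rose from 1360, 2160 and 1864 CPM to 2920 and 3215 (0.76 ± 0.17, adjusted p = 0.0148, edgeR), mt-Nd5 by 0.73 (0.0351) and mt-Nd6 by 0.66 (0.0496). This made 3 genes higher and 2 lower of 10, where 15.5% of 14705 genes were higher and 16.6% lower. mt-Nd2 (0.55, adjusted p = 0.0997), mt-Nd4 (0.33, 0.264), mt-Cytb (-0.26, 0.337) and mt-Nd1 (-0.43, 0.0744) did not pass. These calls rest on few libraries, as there are 2 of the cKO. Leaving out either leaves a lone cKO library, assumed to vary like the controls, so only the changes are given. Without cKO replicate 1 they were 0.92 for mt-Nd5, 0.86 for mt-Nd6, 0.84 for mt-Co1 and -0.56 for mt-Co3. Without cKO replicate 2 they were 0.53 for mt-Nd5, 0.43 for mt-Nd6 and 0.67 for mt-Co1. The calls of mt-Nd5, mt-Nd6 and mt-Co1 were lost in either case, and that of mt-Co3 without cKO replicate 1. Without control replicate 3, mt-Nd5 (0.0795) and mt-Nd6 (0.0984) were lost, without control replicate 1 mt-Nd1 passed as lower (-0.56, 0.00660), and without control replicate 2 mt-Nd4 passed as higher (0.57, 0.0253). The mt-Nd6 call was also lost with library totals as the scale (0.0626). DESeq2 also called mt-Nd1 (0.0202) and mt-Nd2 (0.0291), and both passed with no filter (0.0199 and 0.00459). Fibroblast markers (6 of 6) summed to 7617 to 7702 CPM in this RNA against 3497 to 5882 in controls. Macrophage markers summed to 98.8 to 142 against 65.9 to 96.6 and epithelium markers to 64.3 to 70.4 against 38.2 to 48.2. Skeletal muscle markers (2 of 4 above 1 CPM, 2 to 3 of 4 in controls) summed to 324 to 381 CPM against 234.9 to 266. The part of these markers was not tested.

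Translational efficiency of the 3 genes was higher in Pelo cKO MEFs. The values were 1.98 ± 0.31 for mt-Co2, 2.16 ± 0.26 for mt-Co3 and 3.72 ± 0.45 for mt-Atp6 (adjusted p = 0.000238, 3.31e-05 and 3.76e-05, edgeR), and with RNA copies added 1.97 for mt-Co2 and 2.75 for mt-Atp6. RNA reads were divided between gene and copies, while footprints have no entry for the copies. The part of read placement in the efficiency of the 3 genes was not tested. mt-Nd1 was called as well (0.75 ± 0.28, adjusted p = 0.0428). The other 6 genes were between -0.58 ± 0.31 for mt-Nd5 and 0.64 ± 0.27 for mt-Cytb (adjusted p = 0.146 and 0.0728). So 4 of 10 rose and none fell, where 24.3% of the 12143 genes tested rose and 20.4% fell. Outside the 10, mt-Atp8 was at 1.97 ± 0.38 and mt-Nd3 at 1.57 ± 0.34 (adjusted p = 0.00110 and 0.00213, edgeR). The 8.0% of mt-Atp8 windows found shared counts annotated transcripts only. mt-Nd4l did not pass (0.84, adjusted p = 0.0832). The mt-Nd1 call was lost with any of 8 libraries left out, which were RNA control replicates 2 and 3, RNA cKO replicates 1 and 2, footprint control replicates 1 and 2 and footprint cKO replicates 1 and 2 (0.53 to 0.81, adjusted p = 0.0553 to 0.133). mt-Cytb passed without RNA control replicate 1 (adjusted p = 0.0271), footprint control replicate 3 (0.0423) or footprint cKO replicate 3 (0.0276), and in DESeq2 (0.0467).

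In the MEFs labelled Upf2 cKO the genes moved in both directions. mt-Co2 was at 3.90, 8.85 and 5.39 CPM in the controls of that pool and at 11.1, 12.6 and 21.1 CPM in the MEFs labelled Upf2 cKO. mt-Co3 was at 4.94, 7.76 and 6.80 against 9.34, 11.9 and 20.6 CPM, and mt-Atp6 at 3.27, 4.81 and 5.81 against 10.2, 10.3 and 12.4. mt-Nd6 was at 120.1, 183 and 166 CPM in controls and at 255, 304 and 260.2. In these 4 of 10 genes every library labelled Upf2 cKO was above every control library, where 31.0% of all genes lay wholly higher, the mt-Co2 and mt-Co3 values being highest in replicate 3. The log2 fold changes were 1.24 ± 0.30 for mt-Co2, 1.06 ± 0.27 for mt-Co3, 1.19 ± 0.21 for mt-Atp6 and 0.76 ± 0.13 for mt-Nd6 (adjusted p = 0.00624, 0.00798, 0.000791 and 0.000907, edgeR).

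Complex I subunits mt-Nd5 and mt-Nd1 fell in the same MEFs. mt-Nd5 was at 745, 991 and 1160 CPM in controls and at 681, 785 and 639 in the MEFs labelled Upf2 cKO (-0.51 ± 0.13, adjusted p = 0.00902, edgeR), and mt-Nd1 at 504, 619 and 780 against 480, 580 and 437 CPM (-0.39 ± 0.14, adjusted p = 0.0375). The groups overlapped in both. That left mt-Nd2 (-0.25, adjusted p = 0.120), mt-Nd4 (-0.29, 0.120), mt-Cytb (-0.20, 0.224) and mt-Co1 (-0.11, 0.566) without a call. In all 4 of 10 rose and 2 fell, where 22.3% of 12166 genes rose and 21.1% fell, and the median was -0.16 over the 10 and 0.00094 over all. The mt-Nd1 call was lost without control replicate 2 (adjusted p = 0.0611), control replicate 3 (0.129), replicate 1 labelled Upf2 cKO (0.107) or replicate 3 labelled Upf2 cKO (0.125), in DESeq2 (0.129) and with library totals as the scale (0.0646). Without control replicate 1, mt-Nd2 (-0.38, adjusted p = 0.0207) and mt-Nd4 (-0.43, 0.0251) passed as lower, and mt-Nd4 also without replicate 2 labelled Upf2 cKO (-0.45, 0.0332). Of 66 nuclear genes with 95% or more of windows shared, 6 rose and 14 fell (9.09% and 21.2%), against 22.9% and 21.1% of 10408 with under 5% shared. Fibroblast markers summed to 24367 to 26552 CPM against 17701 to 17905 in controls, macrophage markers (5 of 5) to 123 to 158 against 90.6 to 122 and endothelium markers to 54.8 to 61.6 against 68.9 to 82.7. Epithelium markers (1 to 2 of 4 above 1 CPM) summed to 19.4 to 25.0 CPM against 38.6 to 51.7 and granule cell progenitor markers (2 of 4) to 287 to 376 against 145 to 201, and the part of these was not tested.

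In the RNA of the MEFs labelled Upf2 cKO none of the 10 genes passed, at log2 fold changes from -0.51 ± 0.36 for mt-Co2 to -0.06 ± 0.15 for mt-Co1 (adjusted p = 0.342 and 0.808, edgeR), where 13.2% of all 15983 genes passed as higher and 6.76% as lower. DESeq2 called none of the 10, and 2 had an unadjusted p under 0.05, mt-Atp6 (0.0410) and mt-Nd4 (0.0434). mt-Nd4 passed without control replicate 1 (-0.57, adjusted p = 0.0472). The spread of mt-Co2 came with its copies: the libraries were at 1169, 325 and 875 CPM, with 11.7%, 68.8% and 4.94% of reads assigned to the copies, and the change with copies added was -0.20 (adjusted p = 0.379).

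Translational efficiency in these MEFs rose for mt-Co2 (1.73 ± 0.56), mt-Co3 (1.16 ± 0.30), mt-Atp6 (1.48 ± 0.23) and mt-Nd6 (0.81 ± 0.24), with adjusted p = 0.0395, 0.0140, 0.000877 and 0.0265 (edgeR). With copies added the values were 1.42 for mt-Co2 and 1.39 for mt-Atp6. As for Pelo cKO, the part of read placement was not tested. In all 4 of 10 genes were higher and none lower, where 8.47% of 12054 genes were higher and 11.8% lower. mt-Co2 was lost without RNA control replicates 2 or 3, footprint control replicates 1 or 3 or footprint replicates 2 or 3 labelled Upf2 cKO (1.40 to 1.86, adjusted p = 0.0566 to 0.114). mt-Nd6 was lost without RNA control replicates 2 or 3, RNA replicates 2 or 3 labelled Upf2 cKO, footprint control replicate 1 or footprint replicate 2 labelled Upf2 cKO (0.65 to 0.78, adjusted p = 0.0516 to 0.0765).

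Whether the Hbs1l effect differed between tissues was tested with an interaction of tissue and genotype, each mutant against its own controls. Between embryo and cerebellum none of the 10 genes passed. The differences were -2.67 ± 0.82 for mt-Co2, -2.45 ± 0.75 for mt-Atp6 and -2.01 ± 0.75 for mt-Co3 (adjusted p = 0.133, 0.134 and 0.208, edgeR) and between -0.33 and 0.17 for the other 7, and 0.732% of 14624 genes passed, 107 genes, with 2298 at an unadjusted p under 0.05. DESeq2 called 585 genes and none of the 10. Without cKO cerebellum replicate 1, mt-Co2 (-3.15, adjusted p = 0.0470) and mt-Atp6 (-2.93, 0.0244) passed, and without Hbs1l -/- embryo replicate 1 mt-Co2 passed (-3.37, 0.0490).

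Between embryo and MEFs, in which the same gene was removed, 4 of the 10 differed. The effect was higher in the embryo for mt-Nd5 (1.60 ± 0.39), mt-Nd1 (1.39 ± 0.39) and mt-Nd4 (1.35 ± 0.39; adjusted p = 0.0196, 0.0388 and 0.0450, edgeR) and lower for mt-Co2 (-1.80 ± 0.43, adjusted p = 0.0174), where 4.20% of 13062 genes were higher and 3.26% lower. mt-Nd2 (1.23, adjusted p = 0.0811), mt-Cytb (1.12, 0.0931), mt-Co1 (0.77, 0.110), mt-Co3 (-1.01, 0.147), mt-Atp6 (-1.07, 0.136) and mt-Nd6 (-0.32, 0.547) did not pass. These calls rest on few libraries. mt-Nd4 kept its call only without Hbs1l -/- replicate 1 or 2, and mt-Nd1 only without one of those 2 or MEF control replicate 1; left out otherwise, the adjusted p was 0.0514 to 0.119 for mt-Nd4 and 0.0572 to 0.108 for mt-Nd1, and both were lost in DESeq2 (0.0748 and 0.0559) and with library totals (0.0593 and 0.0511). Without Hbs1l -/- replicate 3 the differences themselves shrank to 0.76 for mt-Nd4 and 0.85 for mt-Nd1, while in the other cases with a lost call they were 1.19 to 1.49 and 1.24 to 1.48. Under the same omission mt-Nd5 was at 1.07 (adjusted p = 0.0236). mt-Nd5 was lost without MEF control replicate 2 (0.0513) or 3 (0.0511), MEF Hbs1l cKO replicate 2 (0.0607) or control embryo replicate 1 (0.0619), and mt-Co2 without MEF Hbs1l cKO replicate 1 (0.0523) or control embryo replicate 1 (0.0533). mt-Nd2 and mt-Cytb passed without Hbs1l -/- replicate 1 (1.52 and 1.38, adjusted p = 0.00323 and 0.00642) or 2 (1.41 and 1.33, 0.0486 and 0.0420), and mt-Co1 without Hbs1l -/- replicate 1 (0.93, 0.0138). Strain, stage and library batch differ along with tissue and cannot be told apart from it.

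The effects of Pelo cKO and Hbs1l cKO in MEFs also differed, although the 2 proteins work as a pair. Hbs1l cKO MEFs had a null allele before tamoxifen and Pelo cKO MEFs did not, which cannot be told apart from the gene removed. The Pelo effect was higher by 2.45 ± 0.36 for mt-Co3, 2.22 ± 0.30 for mt-Co2 and 2.101 ± 0.32 for mt-Atp6 (adjusted p = 0.00106, 0.000723 and 0.00142, edgeR). It was higher by 1.23 ± 0.26 for mt-Co1, 1.22 ± 0.26 for mt-Nd4, 1.11 ± 0.28 for mt-Nd1 and 1.04 ± 0.25 for mt-Cytb (adjusted p = 0.0122, 0.0122, 0.0293 and 0.0270). The other values were 1.05 for mt-Nd5, 0.93 for mt-Nd2 and 0.84 for mt-Nd6 (adjusted p = 0.0522, 0.0827 and 0.0627). Thus 7 of 10 were higher and none lower, where 432 of 12526 genes (3.45%) were higher and 263 lower. The 2 effects share their control cultures, sequenced in 2 pools, so that this test counts each control culture as 2 libraries. With each culture counted once, by summing its libraries, the controls drop out of the difference and pools are no longer adjusted for. Then all 10 genes were higher, from 0.80 for mt-Nd6 to 2.47 for mt-Co3 and with no adjusted p above 0.00745 (mt-Nd2, edgeR), among 2276 genes called. mt-Nd1 and mt-Cytb were each lost without control replicate 3 of the Hbs1l pool (adjusted p = 0.0759 and 0.0697), Hbs1l cKO replicate 2 (0.0694 and 0.0550), control replicates 1 (0.0858 and 0.0802) or 2 (0.0579 and 0.0520) of the Pelo pool or Pelo cKO replicate 1 (0.0773 and 0.0734). Without Pelo cKO replicate 3, mt-Nd2 (1.099, adjusted p = 0.0285), mt-Nd5 (1.23, 0.0165) and mt-Nd6 (0.93, 0.0435) passed. mt-Nd5 also passed without control replicate 1 of the Hbs1l pool (1.20, 0.0475) or control replicate 3 of the Pelo pool (1.18, 0.04997), and mt-Nd6 without control replicate 1 of the Hbs1l pool (0.99, 0.0390) or Hbs1l cKO replicate 1 (0.99, 0.0443). With no library left out, the Pelo effect was also higher for mt-Nd3 (3.09) and mt-Nd4l (2.08), outside the 10 (adjusted p = 0.00351 and 0.00637, edgeR).

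The control MEFs show how far these values depend on the pool, since the same cultures were sequenced in each. With the replicate number as a block, 0.139% of 12236 genes differed between the 3 pools, 17 genes, and 3 of them were mt-Co2, mt-Co3 and mt-Atp6 (adjusted p = 8.41e-05, 0.00359 and 2.57e-06, edgeR). Summed, these 3 were at 21.1, 36.0 and 34.7 CPM in the Pelo pool, at 18.6, 32.1 and 30.3 in the Hbs1l pool and at 12.1, 21.4 and 18.0 in the Upf2 pool. Each replicate was thus lowest in the Upf2 pool, by a log2 difference from the Pelo pool of -0.84 for mt-Co2, -0.62 for mt-Co3 and -1.06 for mt-Atp6. The other 7 genes differed by between -0.04 and -0.0018, and none had an adjusted p below 0.942. Leaving out replicate 1, 2 or 3 left 3, 2 or 2 of the 3 genes called. Among 66 nuclear genes with 95% or more of windows shared, none was called between the pools. Each mutant was compared with the controls of its own pool.

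**Figure D5:**
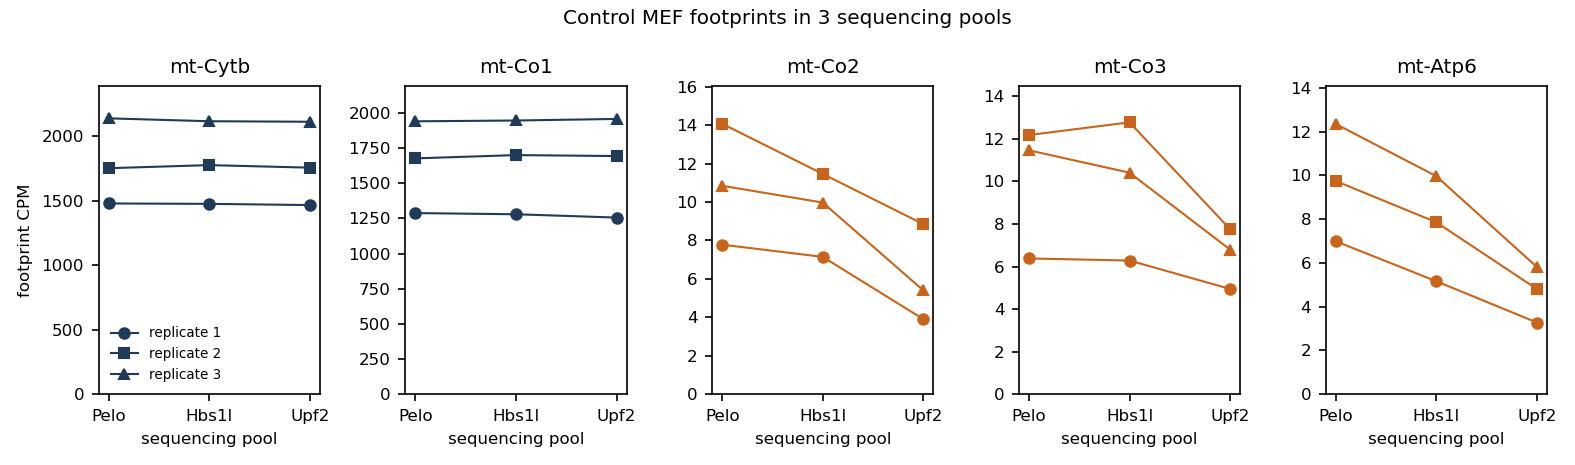
Footprint CPM of mt-Cytb, mt-Co1, mt-Co2, mt-Co3 and mt-Atp6 in the control MEFs in each of the 3 sequencing pools, with lines joining the same replicate. mt-Cytb and mt-Co1 were level across pools, and each replicate of the other 3 genes was lowest in the Upf2 pool.

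The nuclear partners of the 10 genes are described by their counts beside the shares of all genes, with no test of the lists. Of 60 nuclear subunits of the same complexes that were tested, 20 fell and 2 rose in Hbs1l cKO footprints in MEFs, with a median log2 fold change of -0.15, where 16.7% of all genes fell and 17.4% rose. Complex IV held 6 of the 20, among 9 tested, led by Cox6b1 (-0.63 ± 0.08), and complex I held 10 of 36 with Ndufa7 at -0.75 ± 0.15 (adjusted p = 4.80e-05 and 0.00160, edgeR). In their RNA 3 rose and 2 fell of 61, where 12.7% of all genes rose and 10.4% fell. In Pelo cKO MEFs 1 of 60 rose and 11 fell in footprints (median -0.05), and 21.2% of all genes fell, so the share that fell was not above that of all genes. In Pelo cKO RNA 38 of 61 fell and none rose (median -0.39), where 16.6% of all genes fell, among them the complex I subunit Ndufa5 (-1.44 ± 0.13), the complex III subunit Uqcrb (-1.50 ± 0.12) and the complex IV subunit Cox7b (-1.50 ± 0.09; adjusted p = 0.000878, 0.000718 and 0.000399). Translational efficiency was higher for 28 of 60 of these subunits (median 0.34) and lower for none, where it was higher for 24.3% of all genes. In the MEFs labelled Upf2 cKO 29 of 60 fell and 2 rose in footprints (median -0.22), where 21.1% of all genes fell. Complex IV held 8 of the 29, among 9 tested, led by Cox7a2 (-0.68 ± 0.08, adjusted p = 7.97e-05), and in RNA 14 of 61 fell and none rose, where 6.76% of all genes fell. In embryo and cerebellum none of 60 and 61 subunits passed by edgeR.

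Genes that act on mitochondrial mRNAs and DNA were counted in the same way. In footprints 17.4%, 22.9% and 22.3% of all genes rose in Hbs1l cKO, Pelo cKO and the MEFs labelled Upf2 cKO, and 16.7%, 21.2% and 21.1% fell. Of 19 factors of mitochondrial transcription and RNA processing, 8, 8 and 6 rose and none, 1 and 2 fell in these comparisons. They include Lrpprc, which stabilises mitochondrial mRNAs, at 0.36 ± 0.06 in Hbs1l cKO, Pnpt1, an RNA-degrading enzyme, at 0.43 ± 0.09, and Mtpap, the mitochondrial poly(A) polymerase, at 0.45 ± 0.09 (adjusted p = 0.000543, 0.00179 and 0.00198, edgeR), and Pnpt1 was at 0.72 ± 0.10 in Pelo cKO. In Pelo cKO RNA 2 of the 19 rose and 9 fell, where 15.5% of all genes rose and 16.6% fell. Of 13 chaperones and proteases 4, 7 and 4 rose and 1 fell in each of the footprint comparisons, and the protease Lonp1 rose in all of them (0.39, 0.71 and 0.62). Of 14 translation factors 2, 5 and 3 rose and none fell, and the shares of 2 and 3 of 14 were not above those of all genes. Oxa1l, which inserts mitochondrial products into the inner membrane, was at 0.35 ± 0.08 in Pelo cKO. Of 10 genes of mitochondrial DNA maintenance, 1 rose and 1 fell in Hbs1l cKO and in Pelo cKO footprints, shares not above those of all genes. Of the same 10 genes, 4 rose and 3 fell in footprints of the MEFs labelled Upf2 cKO. In the RNA of the latter 7 rose and none fell, where 13.2% of all genes rose, led by Polg2, the accessory subunit of the mitochondrial DNA polymerase (2.07 ± 0.17), and Tk2, a mitochondrial thymidine kinase (1.58 ± 0.16; adjusted p = 1.99e-05 and 0.000107). The nucleotide-supply gene Rrm2b fell by 0.56, 0.65 and 1.09 on the log2 scale in the 3 footprint comparisons. In the embryo 1 of 14 translation factors and 1 of 13 chaperones and proteases fell, where 0.955% of all genes fell and 0.920% rose. They were the elongation factor Tufm (-1.43, adjusted p = 0.0461, edgeR) and the prohibitin Phb (-1.38, 0.0489), which have 86.1% and 97.0% of their windows shared. None of 18 factors of transcription and RNA processing and none of 9 genes of DNA maintenance was called there.

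Across the 30 footprint libraries, with log2 CPM centred within each batch, 6 of the 10 genes ran together, and so did the 3 with nearly all windows shared. Pearson correlations among mt-Nd1, mt-Nd2, mt-Nd4, mt-Nd5, mt-Cytb and mt-Co1 were 0.884 to 0.983, and those among mt-Co2, mt-Co3 and mt-Atp6 were 0.943 to 0.965. Between these 2 sets they ran from -0.11 to 0.477 with a median of 0.159. mt-Nd6 lay nearer to the 3, at 0.706 to 0.778, than to the 6, at 0.193 to 0.557. The libraries share groups, control cultures and depth, so these values describe the libraries and carry no test. Among 11692 other genes with a mean of at least 5 CPM, the 5 most like the mean of the 10 over the same libraries were Malsu1 (r = 0.69), Timm13 (0.68), Bod1 (0.67), Chchd4 (0.66) and Brms1 (0.65).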

How the data were processed

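Ribosome footprints were sequenced in 30 libraries and poly(A)-selected RNA in 11. Per the submitters' processing notes and the study's methods, footprint reads were clipped, cleared of ribosomal and transfer RNA with Bowtie2 2.2.3, aligned to mm10 with HISAT2 2.1.0 and counted over coding sequence with featureCounts, and the authors deposited these as raw counts per gene. RNA was quantified with kallisto 0.42.4, and the authors deposited estimated counts and TPM per transcript. Handling of strand and of reads with several matches is not given in the sources used here.

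Here the estimated counts of all transcripts of a gene were added and rounded. Counts were tested with the edgeR 4.0.16 quasi-likelihood test in R 4.3.3, with TMM factors, a filter on low counts, Benjamini-Hochberg adjustment over all genes and a threshold of 0.05. The TPM were used for levels only. Each comparison was fitted on its own groups, translational efficiency as the interaction of assay and genotype, and differences between effects as the interaction of genotype and set. The code was tested on simulated data. Library totals are given with the results; precision is limited by the low counts of mt-Co2, mt-Co3 and mt-Atp6. Where nothing says that libraries of a group are separate animals or cultures, p-values measure the spread between libraries only. The alternatives were DESeq2 1.42.0, other scalings, no filter, the replicate number as a block, each library left out in turn, and RNA of nuclear copies added to their gene (copies share at least 200 windows).

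The text names all 10 genes, the 3 other mitochondrial mRNAs where called, the targeted genes, nuclear copies, up to 3 genes with the lowest adjusted p per list and comparison, and the 5 genes most like the mean of the 10. Genes and lists were chosen with earlier results of these data known. The levels per unshared window, the classes of genes by shared sequence, the comparison of control pools and the counting of each control culture once were added after seeing the data. Shared windows come from GENCODE transcripts on GRCm38. For the correlations a pseudocount of 0.5 was added to CPM, and footprint libraries were centred within 5 batches.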

Additional observations from a re-analysis of the deposited data

Results flagged for a closer look

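All results listed here are genes whose mutant effect differed between groups by a test of the difference itself (edgeR, interaction term). The Hbs1l effect on footprints was higher in the embryo than in MEFs for mt-Nd1 by 1.39 on the log2 scale (adjusted p = 0.0388), for mt-Nd4 by 1.35 (0.0450) and for mt-Nd5 by 1.60 (0.0196). Without Hbs1l -/- replicate 3 the mt-Nd1 and mt-Nd4 differences were 0.85 and 0.76. Both calls were also lost in DESeq2 and with library totals, and the losses with other libraries left out are given above. For mt-Co2 it was lower in the embryo, at a difference of -1.80 (adjusted p = 0.0174). In MEFs the Pelo effect was higher than the Hbs1l effect by 1.11 for mt-Nd1 (adjusted p = 0.0293), 1.22 for mt-Nd4 (0.0122), 1.04 for mt-Cytb (0.0270) and 1.23 for mt-Co1 (0.0122). The difference was larger for the 3 genes with nearly all windows shared, at 2.22 for mt-Co2 (adjusted p = 0.000723), 2.45 for mt-Co3 (0.00106) and 2.101 for mt-Atp6 (0.00142).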

How the results depend on the processing

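In settings other than leaving out a library, 872 of 931 values of single genes (changes and levels) kept their direction and call or stayed within the spread. With a library left out 968 of 1180 did so, 85 changed sign, 89 lost a call and 38 gained one. Depth limits mt-Co2, mt-Co3 and mt-Atp6 most, with 16 to 174 counts per library in Hbs1l -/- embryos, Hbs1l cKO MEFs and the controls of that MEF pool. The levels per window that occurs once in the genome were not run, as no genome sequence was used here. The cause of the changes below was not tested.

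Signs turned for mt-Co3 in cerebellum footprints with library totals (0.10). In Hbs1l cKO efficiency they turned for mt-Nd6 with DESeq2 (0.00041) and RLE factors (0.0024), for mt-Co2 with DESeq2 (0.0011), RLE factors (0.0026) and the replicate block (0.031), and for mt-Atp6 with copies added (-0.052). In the difference of embryo minus cerebellum they turned for mt-Nd1 (-0.017) and mt-Cytb (-0.039) with library totals, and with the block (-0.041 and -0.10). Library totals moved the median of all genes by 0.102 in the cerebellum and 0.137 in embryo minus cerebellum, and no filter moved it by 0.143 in Pelo cKO RNA.

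Calls among the 10 genes moved to 5 in the embryo and 1 in the RNA of MEFs labelled Upf2 cKO without a filter, and for embryo minus MEF to 2 with DESeq2, 2 with library totals and 7 without a filter. Calls among all genes moved in the embryo to 432 with DESeq2, 139 with library totals, 703 without a filter and 564 with the block. In the cerebellum they moved to 484 with DESeq2, 16 without a filter and 0 with the block, in Hbs1l cKO efficiency to 334 with DESeq2, 2 with library totals and 71 with the block, and in embryo minus cerebellum to 585 with DESeq2 and 189 with library totals. Same-numbered samples did not all deviate together in any comparison (lowest r -0.23, highest 0.42), so the numbers were not taken as pairs. The replicate block moved Pelo cKO RNA to 2955 genes. It added mt-Nd6 in the embryo (-0.67), mt-Co3 in Hbs1l cKO RNA (-0.68) and mt-Nd2 in Pelo cKO RNA (0.55) and lost mt-Nd1 in Pelo cKO efficiency (0.68).

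With each library left out in turn, calls among the 10 genes ranged from 2 to 7 in the embryo, 3 to 8 in Pelo cKO footprints, 2 to 8 in Hbs1l cKO RNA, 1 to 6 in Pelo cKO RNA, 0 to 1 in the RNA of MEFs labelled Upf2 cKO, 2 to 4 in their efficiency, 0 to 2 for embryo minus cerebellum and 0 to 7 for embryo minus MEF. Calls among all genes ranged from 28 to 2309 in the embryo, 0 to 560 in the cerebellum, 1817 to 2663 in Hbs1l cKO RNA, 1506 to 4802 in Pelo cKO RNA and 1800 to 3201 in the RNA of MEFs labelled Upf2 cKO. They ranged from 0 to 67 in Hbs1l cKO efficiency, 1506 to 2840 in that of MEFs labelled Upf2 cKO, 8 to 1123 for embryo minus cerebellum, 459 to 2757 for embryo minus MEF and 384 to 735 for Pelo minus Hbs1l, where counting each control culture once gave 2276.

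The sign turned with 1 library left out for uncalled genes, over these ranges. In the embryo these were mt-Nd2 (-0.18 to 0.73), mt-Nd4 (-0.17 to 0.70), mt-Cytb (-0.17 to 0.69) and mt-Co1 (-0.21 to 0.28), and in the cerebellum mt-Co2 (-0.13 to 0.72) and mt-Co3 (-0.33 to 0.46). In Pelo cKO footprints they were mt-Nd2 (-0.013 to 0.33) and mt-Nd5 (-0.056 to 0.32), and in MEFs labelled Upf2 cKO mt-Co1 (-0.28 to 0.022) and, in RNA, mt-Nd1 (-0.21 to 0.0057), mt-Nd6 (-0.25 to 0.070) and mt-Co1 (-0.20 to 0.066). In Hbs1l cKO efficiency they were mt-Nd1 (-0.29 to 0.0013), mt-Nd4 (-0.32 to 0.060), mt-Nd6 (-0.17 to 0.15), mt-Cytb (-0.16 to 0.15) and mt-Co2 (-0.18 to 0.18). In Pelo cKO efficiency they were mt-Nd4 (-0.26 to 0.14), mt-Nd6 (-0.33 to 0.11) and mt-Co1 (-0.34 to 0.0028), and in that of MEFs labelled Upf2 cKO mt-Nd2 (-0.24 to 0.049), mt-Nd4 (-0.12 to 0.24), mt-Cytb (-0.034 to 0.23) and mt-Co1 (-0.23 to 0.064). For embryo minus cerebellum they were mt-Nd1 (-0.42 to 0.45), mt-Nd2 (-0.66 to 0.23), mt-Nd4 (-0.56 to 0.24), mt-Nd5 (-0.36 to 0.48), mt-Nd6 (-0.60 to 0.10), mt-Cytb (-0.44 to 0.36) and mt-Co1 (-0.56 to 0.044).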
